A study of Bos taurus with 8 samples.

Results

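The basement membrane genes NID1, NID2, LAMA1, LAMA5, LAMB1, LAMC1, COL4A1, COL4A2, HSPG2 and SPARC were examined in cattle embryos of the Holstein and Jersey breeds. They were chosen by name, with the breed ratios of NID1 and SPARC on these arrays already known, so their breed ratios are given as a description and support nothing. Counts of members called in fits over all probes are printed below beside the share of all probes called, with no p for a member's breed ratio. All probes whose symbol was a member were taken, 12 probes for 10 genes, out of 43794 probes and 15216 named genes. Of these 12 probes, 11 exceeded background and represented all 10 genes, and 1 of the 3 LAMC1 probes was too dim.

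RNA of embryos of both breeds was compared on 8 arrays carrying Cy3 and Cy5 together, with 4 replicates of each breed and swapped dyes, on 2 slides of 4 arrays. All embryos developed in vivo and were recovered by flushing 6 days after donors had been inseminated with pooled semen. Donors of both breeds had follicles over 8 mm aspirated, received 400 mg of FSH in doses falling from 60 to 20 mg over 4 days, and had 500 µg of a prostaglandin analogue alongside the final injections. The labels describe Holstein embryos as having good cryotolerance and Jersey embryos as performing poorly once frozen. Nothing in the labels says how many embryos or donors made up a replicate, and the replicate spread may therefore be technical. RNA came from whole embryos, so fewer cells of a type and less RNA per cell cannot be told apart.

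A basement membrane is a thin sheet of extracellular matrix under an epithelium. Laminins, trimers of an alpha, a beta and a gamma chain, polymerise at the cell surface, a network of type IV collagen joins them, and nidogens and the heparan sulfate proteoglycan perlecan link the layers. SPARC is a secreted glycoprotein that binds collagens, type IV among them. In the mouse, the primitive endoderm of the blastocyst makes much of this matrix, and loss of the laminin gamma 1 chain leaves the embryo without basement membranes around implantation.

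By normalized ratio NID1 and SPARC were higher in Jersey embryos on all 8 arrays, SPARC by only -0.03 on array 8. The mean log2(Holstein / Jersey) was -3.26 for NID1 and -1.07, or 2.11-fold, for SPARC. The size for NID1 is not settled, since Holstein was at or under the background threshold in pairs 2 and 4, and its mean was -2.56 without pair 4 and -2.75 with no background correction. Median centring in place of loess turned SPARC to 0.14 in pair 4. The other 8 genes lay between -0.45 and 0.41 on the same scale, with a median of -0.03. The paralog of NID1, NID2, stood at -0.07. Over the 10 genes 6 were below 0 and 4 above, with a median of -0.16, beside a median of 0.01 and 47.3% below 0 over all 12349 genes above background. The median moved to -0.12, -0.50, 0.13 and -0.16 in the individual dye-swap pairs. A dye-swap pair is the mean of 2 neighbouring arrays of opposite dye orientation, and n counts these 4 pairs.

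NID1 (probe EMBV3_21955, chromosome 28) encodes nidogen 1, which binds the laminin gamma 1 chain and type IV collagen. In array order its spot intensity in Jersey RNA was 5342, 5175, 4141, 2324, 2320.3, 2144, 6338 and 4029. In Holstein RNA on the same arrays it was 1954, 2399, 210.5, 256, 558, 635.4, 183 and 162. The Jersey channel was thus bright on every array, and the Holstein channel ranged from clear signal in pair 1 to none beyond background in pair 4. The Holstein value was above the background threshold on 6 of 8 arrays, and in pair 2 only just, at 210.5 against 191 and 256 against 254. In pair 4 it lay under the thresholds of 242 and 227.

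The log2 ratio of NID1 was -1.30, -4.44, -1.93 and -5.36 in the 4 pairs, with a mean of -3.26 ± 0.74 (moderated SE, n = 4 pairs). Jersey was 2.45-fold higher in pair 1, where both breeds were clearly above background. No fold is given for pairs 2 and 4, where the Holstein value does not fix it. The direction was shared by all 4 pairs, while the size was not. The SD between pairs, 1.95, was the 18th highest of 32033 probes with a value on all arrays, and the mean was the lowest of them. The 2 arrays of a pair differed by 0.01 to 1.09, against 4.06 between the extreme pairs. Without pair 4 the mean was -2.56 and without pair 1 it was -3.91. The ratios of pairs 2 and 4 rest on Holstein values at the background floor. With no background correction they were -3.53 and -4.49, while pairs 1 and 3 moved less, to -1.24 and -1.74.

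SPARC (EMBV3_02377, chromosome 7) was above background for both breeds on all 8 arrays. Its intensity in Jersey RNA ran from 2458 through a median of 5183 to 6511, and in Holstein RNA from 1093 through 2687 to 3586. The ranges of the breeds overlapped across arrays through pair 4, where Jersey was at its lowest. The log2 ratios were -1.11, -0.78, -2.21 and -0.21, with a mean of -1.07 ± 0.32 (moderated SE, n = 4 pairs). The difference was largest in pair 3, where Holstein intensities of 1093 and 1289 met Jersey intensities of 5819 and 5045. Without pair 3 the mean was -0.70. In pair 4 the breeds were close, at -0.38 and -0.03 on the single arrays. On array 8 the raw intensity before normalization was higher in Holstein, at 2727 against 2458 in Jersey. The arrays of a pair differed by 0.01 to 0.35 against 2.00 between pairs.

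**Figure D1:**
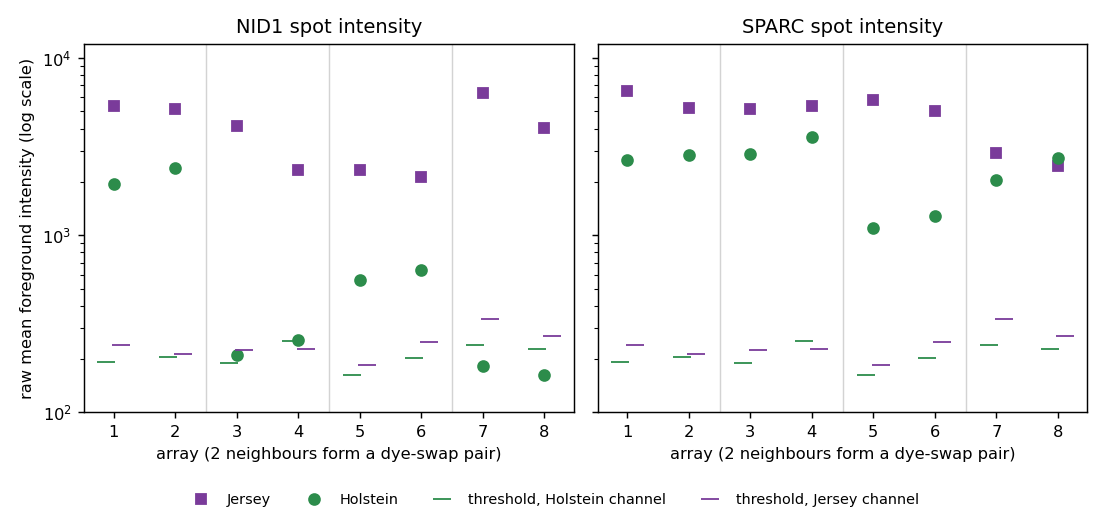
Raw mean foreground intensity (log axis) of the NID1 spot on the left and the SPARC spot on the right, on each of the 8 arrays, for Jersey (squares) and Holstein (circles), with short lines for each channel's background threshold. NID1 in Holstein lies near or under the threshold on arrays 3, 4, 7 and 8, whereas SPARC is above it everywhere and the breeds meet on array 8.

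The order of the pairs differed between the genes. NID1 was most different in pair 4, where SPARC was least different. The root mean square difference between the 4 pair ratios of NID1 and SPARC was 3.17, while the value between SPARC and its nearest member, COL4A2, was 1.03. This distance does not measure the order alone. It also counts the gap between the means of -3.26 and -1.07, and the NID1 ratios of pairs 2 and 4 at the background floor. The smallest such distance among the members was 0.24, between LAMB1 and COL4A1, and the largest was 4.00, between NID1 and the brightest LAMC1 probe.

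Among the laminins, LAMA5 (EMBV3_26649, chromosome 13), the alpha 5 chain, had ratios of 0.46, 0.62, 0.32 and -0.32, with a mean of 0.27 ± 0.17. Holstein was higher in 3 of 4 pairs, but on slide 2 alone the mean was -0.00086. LAMA1 (EMBV3_37373, chromosome 24), the alpha 1 chain, part of an early laminin of the mouse embryo, was dim, above background on 5 Holstein and 6 Jersey channels of 8. Its ratios of -0.52, -1.30, 0.56 and 0.21 averaged -0.26 ± 0.32 and had opposite signs on the slides. Holstein intensities ran from 181 to 340 with a median of 253, and Jersey intensities from 243 to 531.7 with a median of 315.

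The beta 1 chain LAMB1 (EMBV3_34034, chromosome 4) had ratios of -0.00, -0.25, 0.45 and -0.12 and a mean of 0.02 ± 0.13. Its dye-swapped arrays differed by up to 1.29, more than the 0.70 between its extreme pairs. Of the 3 probes of LAMC1 (chromosome 16), the gamma 1 chain, EMBV3_37097 had ratios of 1.00, -0.40, 0.27 and 0.77, with a mean of 0.41 ± 0.24. In pair 1 its Holstein intensities were 1484 and 1477, above the 717 to 1189 of the other Holstein channels. Probe EMBV3_23221 gave 0.22, 0.36, 0.21 and 0.26, with a mean of 0.26 ± 0.07. These even pair means hide single arrays on both sides of 0, since the arrays of a pair differed by up to 1.14 and 2 of 8 were below 0. The third probe, EMBV3_11677, exceeded background on 3 Holstein and 2 Jersey channels and averaged 0.01.

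The type IV collagen genes COL4A1 and COL4A2, which encode the alpha 1 and alpha 2 chains of the ubiquitous trimer, are neighbours on chromosome 12. COL4A1 (EMBV3_38587) had ratios of 0.31, -0.59, 0.38 and -0.04, averaging 0.01 ± 0.18. Its Holstein intensities were 3628 and 3310 in pair 1, against 1242 to 1900 elsewhere, and Jersey was also at its brightest on array 1, with 3242. COL4A2 (EMBV3_17477) was below 0 in all 4 pairs, at -0.23, -0.10, -0.59 and -0.87, with a mean of -0.45 ± 0.14. It was below 0 on 7 of 8 arrays, and its Holstein value was under background on 1 array of pair 4. The arrays of a pair differed by 0.13 to 0.42 for COL4A2, against 0.77 between pairs.

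NID2 (EMBV3_14250, chromosome 10), nidogen 2, was dim in both breeds, above background on 6 Holstein and 4 Jersey channels. Its ratios were 0.30, -0.25, -0.01 and -0.29, with a mean of -0.07 ± 0.12. Holstein intensities ran from 170 to 386 with a median of 218, and Jersey intensities from 185 to 333 with a median of 285. HSPG2 (EMBV3_17397, chromosome 2), which encodes perlecan, had ratios of -0.23, -0.76, -0.17 and 0.12, with a mean of -0.26 ± 0.15. In pair 4 HSPG2 was bright in both breeds, at 4053 and 6205 in Holstein and 4413 and 4530 in Jersey, above the 1026 to 2949 of all other channels. The high level in pair 4 was thus shared by the breeds.

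**Figure D2:**
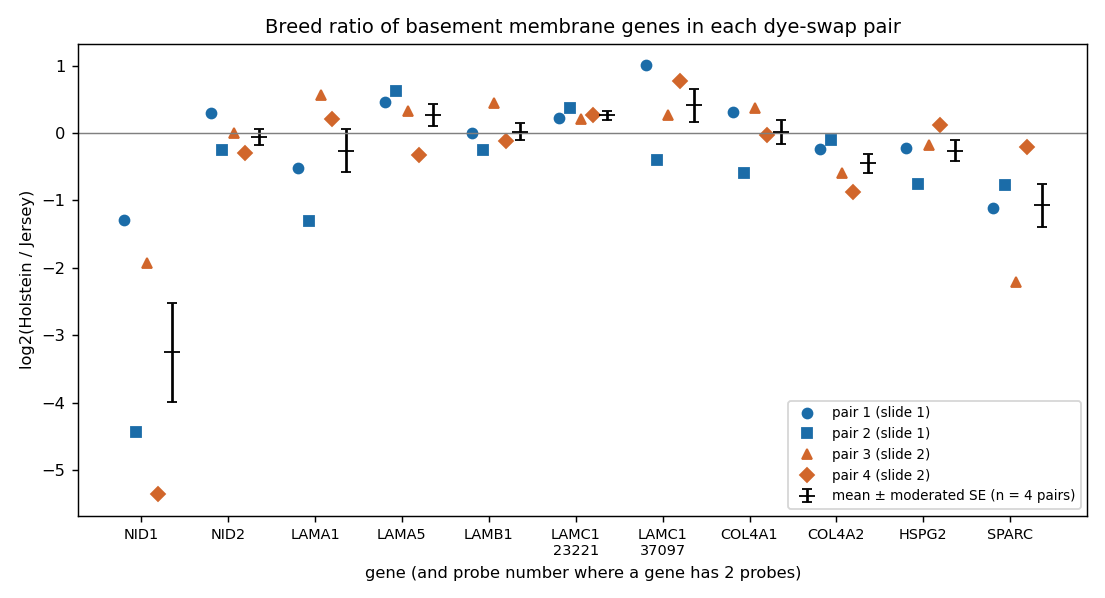
Log2(Holstein / Jersey) of the 11 probes above background in each of the 4 dye-swap pairs (blue for slide 1, orange for slide 2), with the mean and moderated SE over 4 pairs in black. NID1 spans -5.36 to -1.30 and SPARC -2.21 to -0.21, and the means of the other probes lie between -0.45 and 0.41.

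Swapping the dyes did not turn the ratio of NID1 or SPARC. With Holstein in Cy5 the mean of NID1 was -3.13 and with Jersey in Cy5 it was -3.39. The corresponding means of SPARC were -1.15 and -0.997. For 3 of 11 probes, the largest gap between the arrays of a pair exceeded the range between pairs.

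**Figure D3:**
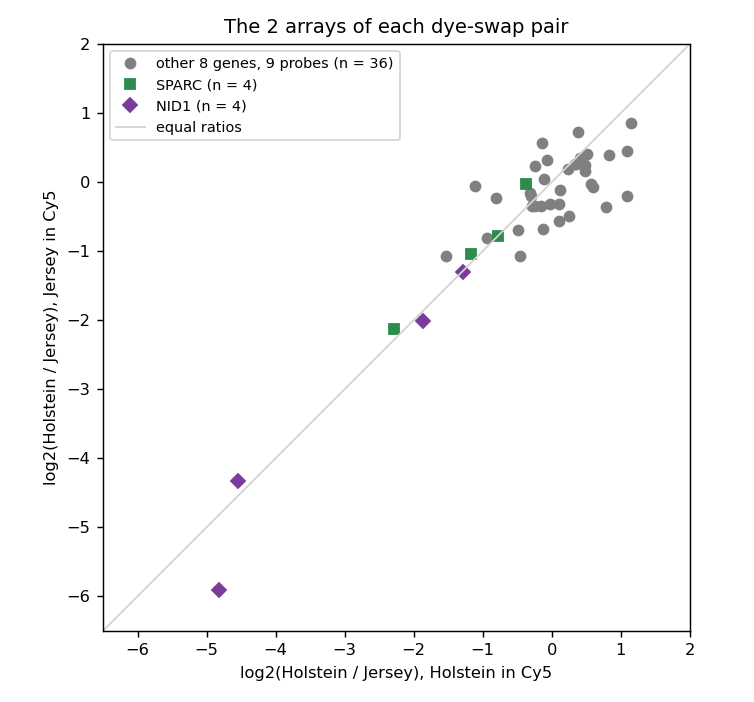
Log2(Holstein / Jersey) of each member probe in each pair, on the array with Holstein in Cy5 (horizontal) against the array with Jersey in Cy5 (vertical), with a line of equal ratios. NID1 and SPARC lie below 0 on both axes in all 4 pairs, and the remaining probes scatter around 0.

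Read against all probes, the members' counts are as follows, with nothing drawn from those of NID1 and SPARC, which were known when the members were taken. On pair means limma called 0 of 11 member probes and 0% of 32129 probes at an adjusted p of 0.05, although 4483 had an unadjusted p under 0.05. The smallest adjusted p over all probes was 0.0678. With the 8 arrays fitted singly and the pair as a random block, 2 member probes, those of NID1 and SPARC, were called higher in Jersey, where 2.14% of all probes were called. In that fit 0 member probes were called higher in Holstein, where 1.64% of all were. The same 2 probes were below 0 on all 8 arrays, as were 2.72% of all probes, and 0 were above 0 on all 8, as were 2.31%. Both fits use the same arrays.

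The difference of the breed ratio between the slides is independent of the mean on which the members were known, and it was tested. limma called 0 of 11 member probes and 0% of all probes, and no adjusted p fell under 0.191. Before adjustment, p was under 0.05 for 2 of the 11 and for 1310 of all probes, or 4.08%. For LAMA1 the difference, slide 2 minus slide 1, was 1.29 ± 0.32 (limma, unadjusted p = 0.0143), with opposite signs on the slides. For COL4A2 it was -0.57 ± 0.17 (limma, unadjusted p = 0.0273). For NID1 the difference between slides was -0.78 ± 1.601 and for SPARC it was -0.26 ± 0.71, both within the error.

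The named probes with pair ratios most like those of NID1, by root mean square difference over 4 pairs, were GIMAP4 (1.66), ULBP21 (1.85) and GSTO1 (1.88). No other named probe came closer to NID1 than 1.66, whereas the nearest to SPARC came within 0.24. This distance grows with the size of the NID1 ratios, whose mean was the lowest of 32033 probes. Pairs 2 and 4 of NID1 also lay at the background floor, so the contrast with SPARC does not describe the order of the pairs. GIMAP4 (EMBV3_18090, chromosome 4), a GTPase known from lymphocytes, had ratios of -3.29, -4.07, -1.87 and -2.73. ULBP21 and GSTO1 averaged -2.07 and -2.16. Nearest to SPARC were RENBP (0.24), OFD1 (0.28) and MYOM1 (0.29). RENBP, the renin binding protein, had ratios of -1.31, -1.15, -1.99 and -0.28, and OFD1, a centriole protein, -1.25, -0.94, -1.74 and 0.01. Both lie on the X chromosome and MYOM1 on chromosome 24. XIST, the noncoding RNA of X inactivation, was looked at after this result. Its ratios of -3.22, -3.43, -3.52 and -1.56 were smallest in size in pair 4, like those of SPARC, at a distance of 1.94 from them. The part of the X-linked differences in that of SPARC was not tested.

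Around the members, 5 lists of related genes held 94 genes above background. On pair means limma called 0 of the 94, with 14 at an unadjusted p under 0.05, as were 15.9% of all 12349 genes, and 49 lay above 0 and 45 below. With the random block 2 of 94 were called higher in Holstein, beside 2.33% of all genes by their brightest probe, and 3 higher in Jersey, beside 2.14%.

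Of the 16 other basement membrane components above background, 25 having a probe, 10 were above 0 and 6 below, with a median of 0.02. HMCN1 (EMBV3_02960), which encodes the matrix protein hemicentin 1, was called higher in Holstein with the random block (limma, adjusted p = 0.0187), and its pair ratios were 0.87, 0.36, 0.60 and 0.39. On pair means HMCN1 had 0.55 ± 0.11 and an adjusted p of 0.157. The heparan sulfate proteoglycan agrin, AGRN, had a mean of 0.50 ± 0.28, with pairs from -0.39 to 1.23. VWA1 had 0.26 ± 0.15. Of the 23 genes for collagen and laminin synthesis and crosslinking, 14 were above 0 and 9 below, with a median of 0.03 and 0 called in either fit. Before adjustment, 1 was higher in Holstein and 2 in Jersey at p under 0.05. SEC24D, a coat protein of the vesicles that carry collagen, had -0.71 ± 0.23. The lysyl oxidase family members LOXL4 and LOXL2 had -0.54 ± 0.17 and 0.23 ± 0.08.

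Among the 23 receptors above background, 10 lay above 0 and 13 below, with a median of -0.02. The laminin-binding integrin chains ITGA6 and ITGA7 went opposite ways. ITGA6 (EMBV3_17270) was higher in Holstein with the random block (limma, adjusted p = 0.0362) at 0.58 ± 0.14, positive in all 4 pairs. ITGA7 (EMBV3_19879) was higher in Jersey (adjusted p = 0.0341) at -0.42 ± 0.09, negative in all 4. ITGA6 was above background on 7 Holstein and 5 Jersey channels of 8, and ITGA7 on all 8 of each. With no background correction ITGA6 stood at 0.33 and ITGA7 at -0.38. The fibronectin receptor chain ITGA5 had -0.52 ± 0.17 and was not called. On pair means the adjusted p values of ITGA6 and ITGA7 were 0.2004 and 0.172.

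Of the 20 matrix proteases and inhibitors, 12 were above 0 and 8 below, with a median of 0.02. The 2 calls of the random block were inhibitors of metalloproteinases, both higher in Jersey. TIMP1 (EMBV3_32067), on the X chromosome, had pair ratios of -1.16, -1.42, -0.26 and -1.44 and a mean of -1.07 ± 0.22 (limma, adjusted p = 0.0123), and its other probe averaged -0.68. TIMP2 (EMBV3_41559) averaged -0.69 ± 0.17 (adjusted p = 0.0336). On pair means their adjusted p values were 0.164 and 0.202. The protease ADAMTS1 had 0.46 ± 0.14 and was not called. Of the 12 genes of the SPARC family and other matricellular proteins, 3 were above 0 and 9 below, with a median of -0.04 and 0 called. THBS3, a thrombospondin, had -0.19 ± 0.07, the matricellular protein CCN1 0.53 ± 0.36, and STAB1, a scavenger receptor that takes up SPARC, -0.08 ± 0.09.

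**Figure D4:**
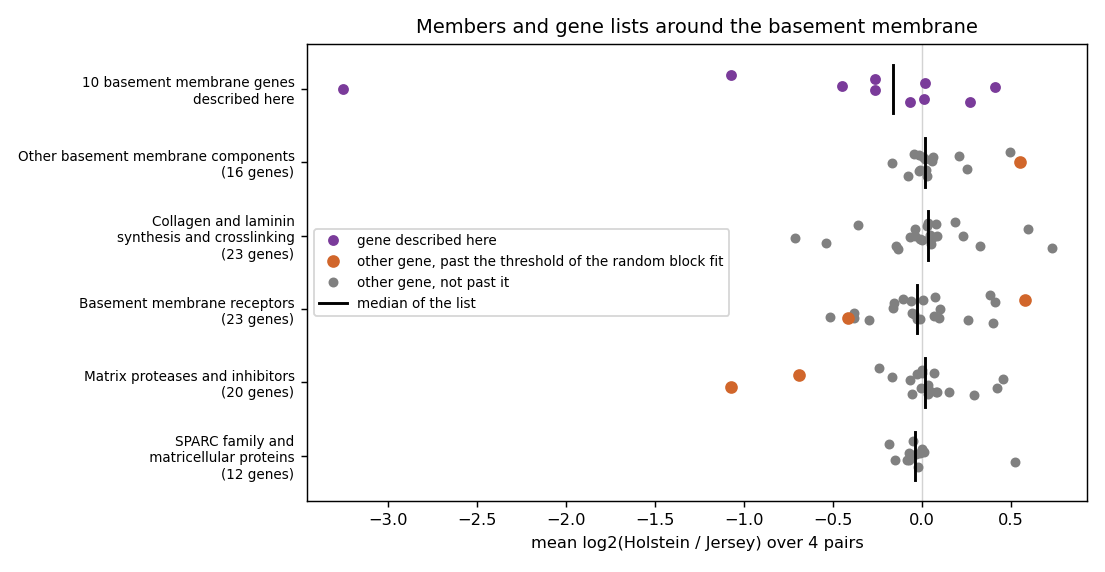
Mean log2(Holstein / Jersey) over 4 pairs for the 10 members (purple, by their brightest probe) and the 94 genes of 5 related lists, with black bars at the medians and orange points for the 5 list genes called with the random block. The list medians lie between -0.04 and 0.03, and NID1 at -3.26 lies outside the range of every list.

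Markers of cells that make or could bring such matrix were read in the same way. On pair means limma called 0 of the 70 genes in the 8 marker lists, with 11 at an unadjusted p under 0.05, beside the 15.9% of all genes. Of the primitive endoderm markers, 11 of 14 with a probe were above background, 4 above 0 and 7 below, with a median of -0.02. The receptor PDGFRA (0.77 ± 0.10) and the transcription factor GATA4 (0.50 ± 0.10) were called higher in Holstein with the random block (limma, adjusted p = 0.0112 and 0.0332), 2 of 11 beside 2.33% of all genes, and 0 were called higher in Jersey. The markers that were not called ran from -0.88 ± 0.54 for HNF4A to 0.39 ± 0.15 for DAB2, with RSPO3 at -0.45 and APOE at -0.31. By its brightest probe HNF4A had ratios of 0.29, -1.68, 0.35 and -2.47, negative in pairs 2 and 4, where NID1 was lowest. The other HNF4A probe averaged -0.00071, and that mean does not show how its single pairs went. RSPO3 was negative in pairs 2 and 3 instead, at -0.94 and -1.54. The other PDGFRA probes averaged from 0.08 to 0.56, those of DAB2 from -0.14 to 0.49 and those of APOE from -0.15 to 0.13. Normalized levels, which are unlogged channel levels after loess and Aquantile scaling between arrays, were summed over the list on each array. The sum ran from 28986 to 45063 in Holstein and from 29207 to 34756 in Jersey. The part of this cell type in the results for the members was not tested.

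The 12 trophectoderm and 11 inner cell mass markers above background had medians of 0.06 and -0.08, with 0 called in either fit. These medians hide wide swings between pairs in some markers. NANOG had ratios of 1.97, -1.58, 2.12 and -0.92, negative in pairs 2 and 4. TFAP2A had 1.57, 3.02, 1.95 and -2.56, KRT19 0.74, 0.92, 1.72 and -2.13, and PTGS2 1.43, 1.45, 2.51 and -1.75. The other PTGS2 probes averaged from 0.16 to 0.60. The part of these cell types in the results for the members was not tested. For stromal and endothelial cells, which carry NID1 and SPARC in many tissues, 10 of 16 markers were above background, 7 above 0, with a median of 0.06 and 0 called. Their sums of normalized levels, 6056 to 19016 in Holstein and 9628 to 13235 in Jersey, overlapped. For erythrocytes, 6 of 7 markers were above background with a median of -0.61 and 0 called, and their sums of 1208 to 1544 in Holstein lay under the 1776 to 5752 in Jersey. By pair, the globin HBG had ratios of -4.22, -3.84, 0.13 and 0.16, HBB -2.24, -1.79, -0.02 and 0.05, and HBA -1.12, -0.80, -0.04 and -0.43. ALAS2, the erythroid enzyme of heme synthesis, had -0.33, 0.44, -1.66 and -0.95. The markers thus differed in which pairs were low, and AHSP and SLC4A1 averaged 0.18 and 0.04. The part of blood cells in the results for the members was not tested. The 6 leukocyte markers, the 9 of cumulus and granulosa cells and the 5 of uterine epithelium had medians of -0.10, -0.09 and -0.01, with 0 called. Of the cumulus and granulosa markers 4 were above 0 and 5 below, with INHBA at 0.79, CYP19A1 at 0.54 and NR5A2 at -0.43. The other CYP19A1 probes averaged from 0.07 to 0.48 and those of NR5A2 from 0.15 to 0.27. The leukocyte marker CD68 had pair ratios of -1.41, -1.17, 0.35 and 0.55. The part of these cells was not tested either. Between 41.7% and 76.1% of probes were above background in Holstein and between 42.8% and 80.8% in Jersey. The share was lower in Holstein on arrays 1, 3, 5 and 7, which had Holstein in Cy5. It was higher in Holstein on arrays 2, 4, 6 and 8, which had Jersey in Cy5. The gap thus followed the dye, with Cy3 higher on every array, and its part in the dim members was not tested.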

How the data were processed

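Per the labels' protocols, RNA from the embryos was isolated by PicoPure, put through 2 rounds of T7 amplification, and coupled to Cy3 or Cy5 by ULS chemistry. The scanner software is not given in the sources used here. The deposited scanner files hold raw foreground and local background intensity for each channel. A further deposited column, of a unit other than a measurement, marks ignored spots, 131 over all arrays and 0 among the members. The deposited value table holds log2 ratios whose steps the authors do not state. Their sign was Jersey over Holstein, and their array medians lay near 0.

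In R 4.3.3 with limma 3.58.1, foreground was corrected with normexp (offset 50), and ratios were normalized by loess within arrays. Probes over the mean plus 2 SD of 153 negative controls for either breed on at least 4 of 8 arrays were kept (32129 of 43794). The array annotation gave 1 symbol to 21790 probes, of which 20025 matched RefSeq (ARS-UCD2.0, used for names and chromosomes) directly and 1524 by synonym, and 22004 had none. A gene is represented by its brightest probe.

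The labels do not name the dye-swap pairs. Of 24 matchings, that with the highest residual correlations was taken (0.46 to 0.71 across probes, -0.36 to -0.02 otherwise). It gave neighbouring arrays, and the choice itself raises this contrast. Pair means were tested against 0, and between slides, with limma and Benjamini-Hochberg adjustment at 0.05. An alternative modelled single arrays, with dye as a term and pair as a random block, for 32033 probes with a within-pair correlation of 0.31. That fit weighs arrays singly, so its calls are no separate support. Errors are moderated SE over 4 pairs.

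Named are all members, the 3 genes of smallest p in each related list, and the 3 probes nearest in pair ratios to NID1 and to SPARC. XIST and the markers PDGFRA, GATA4, HNF4A, DAB2, RSPO3, APOE, HBG, HBB, HBA, ALAS2, AHSP and SLC4A1 were named once their values had been seen. So were NANOG, TFAP2A, KRT19, PTGS2, INHBA, CYP19A1, NR5A2 and CD68. The members and lists were chosen with earlier results of these data known. Alternatives covered background correction, normalization, the filter, each pair left out, the block, the pairing, the slide, the deposited ratios and the probe per gene. The fits on pair means were also run on simulated pair means with known changes. That run did not cover the normalization, the choice of pairs, the background floor or the random block. The number of arrays limits the precision.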

Additional observations from a re-analysis of the deposited data

Results flagged for a closer look

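Among 28 groups of 4 pair ratios and 24 groups of 8 channel levels that were screened for a value far from the rest, 2 stood out, and chance gives about 1 in 20 groups. TIMP2 had a log2 ratio of -0.051 in pair 1, while the other pairs lay between -0.94 and -0.86. For probe EMBV3_23221 of LAMC1, the normalized log2 level in Jersey RNA was 8.80 on 1 array of pair 3 and between 8.19 and 8.48 on the others. That array had a ratio of -0.36, whereas the other array of pair 3 had 0.78.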

How the results depend on the processing

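NID1 kept its direction in 16 of 16 alternatives, from -3.91 to -2.56, and SPARC in 17 of 17, from -1.36 to -0.70. COL4A2 kept it in 16 of 16, and HSPG2 and LAMC1 in 17 of 17. Every value of NID1 in this range includes pair 2 or pair 4, where Holstein was at or under the background threshold. The range therefore does not bound the size for NID1, which was -1.30 and -1.93 in pairs 1 and 3. The sign turned for LAMA5 in 1 of 17, LAMB1 in 2 of 17, COL4A1 in 3 of 17 and NID2 and LAMA1 in 2 of 16 each, always when a pair or a slide was left out. These counts include settings that cannot change a member's mean ratio. They are Aquantile scaling, the filters where the probe is kept, the random block, crossed pairing and the slide as a term. The mean over probes of a gene can change only LAMC1. In the deposited ratios NID1 stood at -2.95 and SPARC at -1.01. The median of the members ran from -0.21 without pair 3 to 0.04 without pair 2, and was 0.02 when only probes above background for both breeds on all 8 arrays were kept, which leaves out NID1, NID2, LAMA1 and COL4A2. On slide 2 alone it was -0.01. The median of all genes stayed between 0.00189 and 0.0186 over the background and normalization settings.

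Counts of breed calls over all probes rose from 0 to 48 with that filter, to 1209 with the pair as a random replicate block and to 3862 with crossed pairing, and were 0 to 2 with a pair left out. The slide difference had 12 calls with the block and 3283 with crossed pairing, and the related lists 5 and 14. Crossed pairing combines arrays whose residuals do not go together. All other settings left these counts at 0. PDGFRA moved from 0.77 to 0.47 as the mean over its probes. The 12 probes rest on 1 spot each per array, and dim probes such as NID2 and LAMA1 depend on the background floor. Aquantile scaling leaves ratios unchanged by construction.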
